A study of Mus musculus with 18 samples.

Results

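The data described here are the levels of 6 genes of the tendon lineage in mouse limb buds: Scx (scleraxis) and Mkx (mohawk), which encode transcription factors, and Tnc (tenascin C), Postn (periostin), Fmod (fibromodulin) and Dcn (decorin), which encode proteins of the extracellular matrix. They were taken by symbol from the deposited tables of expression values, as 6 of the 14686 genes listed in at least 1 of 3 tables. The tables for the Pitx1 null comparisons list all 6 genes, and the CD1 table lists 5 of them, without Dcn.

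RNA was sequenced from limb buds, which are mesenchyme under a sheet of ectoderm, in 6 groups with 3 libraries each (n = 3). The CD1 groups, both wild type, are the forelimb at e10.5 and the hindlimb at e11.0, which the design text pairs as alike in morphology (e, embryonic day). Hindlimb buds of BALB/c embryos were either wild type or null for Pitx1, whose homeodomain protein is made in the hindlimb bud, and were taken at e11.0 and at e11.5. The labels name the null genotype without describing the allele, and do not give the litters or pools behind each library. The p-values therefore refer to the spread among the sequenced libraries that is left after a term for the run, described below. That spread may be technical.

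Tendon progenitors of the limb arise in the mesenchyme, beside the precursors of cartilage and muscle. Scx, a basic helix-loop-helix factor, is the usual early marker of these cells. Tgfb signals are known to induce Scx, and Fgf signals to regulate it. Mkx, a homeodomain factor, acts in the same lineage and is needed for normal tendon matrix. Tenascin C and periostin are matricellular proteins that modulate how cells attach to the matrix, and fibromodulin and decorin are small leucine-rich proteoglycans that bind collagen and regulate fibril assembly.

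Levels are CPM, the reads of a gene per 1000000 reads on all listed genes. The libraries held 17.4 to 53.6 times 1000000 such reads. In each group replicates 1 and 2 belong to a run common to all groups, called the common run here. Replicate 3 belongs to another run in the null comparisons, and its title names no run in CD1. Ribosomal RNA was depleted at e10.5 and e11.0 (stranded libraries), whereas mRNA was enriched at e11.5, where replicate 3 is unstranded. Pitx1 itself ranged over 114 to 136 CPM in wild type against 19.3 to 22.9 CPM in null libraries at e11.0, and over 319 to 364 against 72.1 to 88.6 CPM at e11.5, with no overlap. Each table was normalized separately and fitted separately with limma, so levels set side by side across tables carry no test. Log2 fold changes were taken from log2(CPM + 1), which understates changes of low genes. Those of the main fits stand with their standard error (SE). Values named as the authors' or as from DESeq2 are on other scales, without the added 1 CPM. A gene is said to be higher or lower in a test when limma's Benjamini-Hochberg adjusted p over all listed genes is under 0.05.

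In Pitx1 null hindlimb buds at e11.5, Scx, Mkx, Tnc and Dcn were lower than in wild type, which is 4 of the 6 genes, against 10.8% of all 13478 genes called in either direction (7.96% lower and 2.83% higher). At e11.0 Scx and Mkx were lower and Postn was higher, 3 of 6, against 13.1% of all 14027 genes called (8.41% lower and 4.73% higher). In CD1 hindlimb against forelimb buds Mkx alone was lower, 1 of 5, against 5.87% of all 13540 genes called (3.46% lower and 2.41% higher). The members were chosen with earlier results of these data known, so their counts beside these shares are descriptions and carry no test. The median log2 fold change of the listed members was -0.72 at e11.5, 0.09 at e11.0 and 0.19 in CD1, beside medians over all genes of -0.02, -0.07 and 0.01. The CPM of the 2 groups did not overlap for 3 of 6 members at e11.5 (16.5% of all genes), 3 of 6 at e11.0 (18.5%) and 1 of 5 in CD1 (11.2%). Whether the effect at e11.5 differs from that at e11.0 was not tested, and stage cannot be told apart from the way the libraries were made.

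These calls came from fits with a term for the run. Without that term limma called 0 members in each comparison, while 2, 3 and 3 members of the CD1, e11.0 and e11.5 tables had an unadjusted p under 0.05, and only 13, 5 and 11 of all genes were called. With replicates 1 and 2 alone, the common run, Mkx was no longer called in CD1 or at e11.0 and Dcn was no longer called at e11.5, while Scx and Postn at e11.0 and Scx, Mkx and Tnc at e11.5 were called. On the reads recovered from the CPM values, edgeR made as many member calls as limma in each direction, beside 6.51%, 12.4% and 12.1% of all genes in CD1, at e11.0 and at e11.5. DESeq2 called Tnc lower in CD1 too. The authors' deposited table calls 12.5%, 20.6% and 19.6% of all genes in these comparisons.

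**Figure D1:**
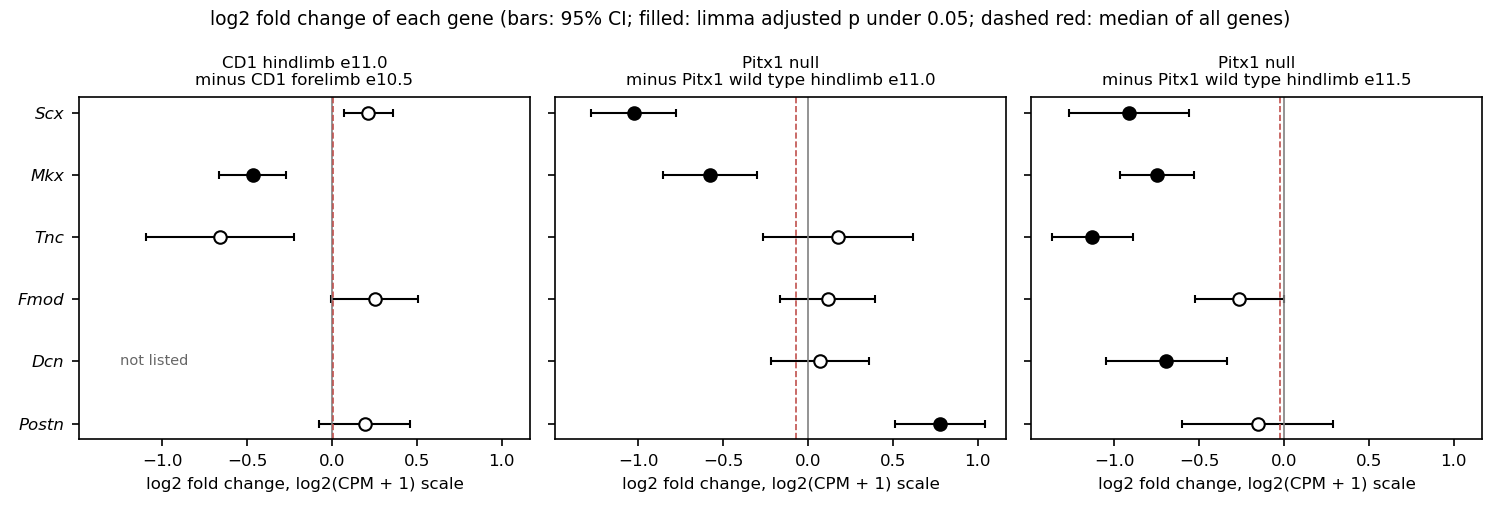
log2 fold change (log2(CPM + 1) scale, horizontal axis) of each gene in the 3 comparisons, with 95% confidence intervals from limma. Filled points have an adjusted p under 0.05, open points do not, and the dashed red line is the median of all genes; Scx and Mkx lie left of 0 in both null comparisons, and Postn lies right of 0 at e11.0.

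Scx (ENSMUSG00000034161, chromosome 15, 76457452 to 76459458, plus strand, GRCm38) was at 25.5, 27.6 and 22.5 CPM in replicates 1, 2 and 3 of wild type hindlimb at e11.0, and at 11.4, 10.6 and 13.6 CPM in the null. Each null library was below each wild type library, and the null mean was 47.1% of the wild type mean (log2 fold change -1.03 ± 0.11 SE, limma adjusted p = 0.00103). At e11.5 Scx was at 52.6, 54.1 and 55.5 CPM in wild type and at 35.6, 34.0 and 18.5 CPM in null libraries. The groups again did not overlap, with the null at 54.3% of wild type (-0.91 ± 0.16, adjusted p = 0.00872), but null replicate 3 lay well under the other null libraries. Without null replicate 3 the log2 fold change was -0.60 (adjusted p = 0.00201), and without wild type replicate 3 it was also -0.60 (adjusted p = 0.00231), since either way the other run keeps a library of 1 group only. By replicate number the null minus wild type difference was -1.09, -1.3 and -0.69 at e11.0, against -0.55, -0.66 and -1.53 at the later stage, so the pairs of the common run had the larger differences at e11.0 and the smaller ones at e11.5.

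In CD1, Scx was at 24.7, 25.3 and 23.3 CPM in forelimb and 29.2, 26.8 and 29.5 CPM in hindlimb. All hindlimb libraries were above all forelimb libraries, yet the difference did not pass (0.21 ± 0.07, 95% interval 0.07 to 0.36, limma adjusted p = 0.0900); the authors' deposited table gives an adjusted p of 0.0346 for it. Here the limb and the age of the embryo differ together and cannot be told apart. Ordered by group mean, Scx was lowest in null hindlimb at e11.0 (11.9 ± 1.56 CPM, SD). Next came CD1 forelimb (24.4 ± 1.05), wild type hindlimb at e11.0 (25.2 ± 2.55), CD1 hindlimb (28.5 ± 1.5) and null hindlimb at e11.5 (29.4 ± 9.47), and wild type hindlimb at e11.5 was highest (54.1 ± 1.42). The groups between 24.4 and 29.4 CPM lie within each other's spread apart from CD1 forelimb against CD1 hindlimb. The lowest and the highest group stand clear of them. The 3 comparisons were normalized separately, and mRNA was enriched at e11.5 only, so this order carries no test.

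Scx lies wholly inside Bop1, a ribosome assembly gene on the opposite strand (76452989 to 76477277), with 0 exon bases shared between them. Whether reads were counted by strand is not given in the sources used here. Bop1 was at 87.5, 85.9 and 114 CPM in wild type against 88.5, 98.2 and 152 CPM in null libraries at e11.5, so it was highest in replicate 3 of both genotypes, the unstranded libraries. In those libraries Scx was the lowest of the null group (18.5 CPM) and the highest of the wild type group (55.5 CPM). The Bop1 difference did not pass at e11.5 (0.20 ± 0.07, limma adjusted p = 0.0925), at e11.0 (-0.08 ± 0.08, adjusted p = 0.50) or in CD1 (0.02 ± 0.05, adjusted p = 0.855), and its part in the Scx values was not tested.

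Mkx (ENSMUSG00000061013, chromosome 18, 6934518 to 7004780, minus strand) was at 17.8, 17.6 and 13.9 CPM in wild type hindlimb at e11.5 and at 12.1, 9.73 and 6.85 CPM in the null. No null library reached the lowest wild type library, and the null mean was 58.0% of wild type (-0.75 ± 0.10, limma adjusted p = 0.00255). At e11.0 it was at 9.36, 12.3 and 8.23 CPM in wild type and at 6.06, 6.51 and 6.21 CPM in the null, a tighter null group that also did not overlap wild type. The null was at 62.9% of wild type there (-0.58 ± 0.12, limma adjusted p = 0.0211). The call was lost on leaving out wild type replicate 1 (adjusted p = 0.0869), wild type replicate 3 (0.0610), null replicate 2 (0.0788) or null replicate 3 (0.0599), with log2 fold changes of -0.69 to -0.57.

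Mkx was the only member that passed in the CD1 comparison. It was at 9.28, 7.96 and 13.7 CPM in forelimb and at 5.74, 6.38 and 9.32 CPM in hindlimb, so the groups overlapped through replicate 3, the highest library of both groups. Within each replicate number the hindlimb library was the lower one, by -0.61, -0.28 and -0.51 on the log2 scale, and the fit gave -0.47 ± 0.09 (limma adjusted p = 0.0128). The call was lost without forelimb replicate 3 (adjusted p = 0.0943), hindlimb replicate 1 (0.0763) or hindlimb replicate 3 (0.0908). Scx, with all hindlimb libraries above forelimb, and Mkx thus had fold changes of opposite sign in CD1 and of the same sign in the nulls. Over the groups the mean Mkx level ran from 6.26 ± 0.230 CPM in null hindlimb at e11.0 to 16.5 ± 2.22 CPM in wild type hindlimb at e11.5. The groups in between, CD1 hindlimb (7.15 ± 1.91), null hindlimb at e11.5 (9.55 ± 2.62), wild type hindlimb at e11.0 (9.95 ± 2.07) and CD1 forelimb (10.3 ± 3.02), overlapped their neighbours.

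**Figure D2:**
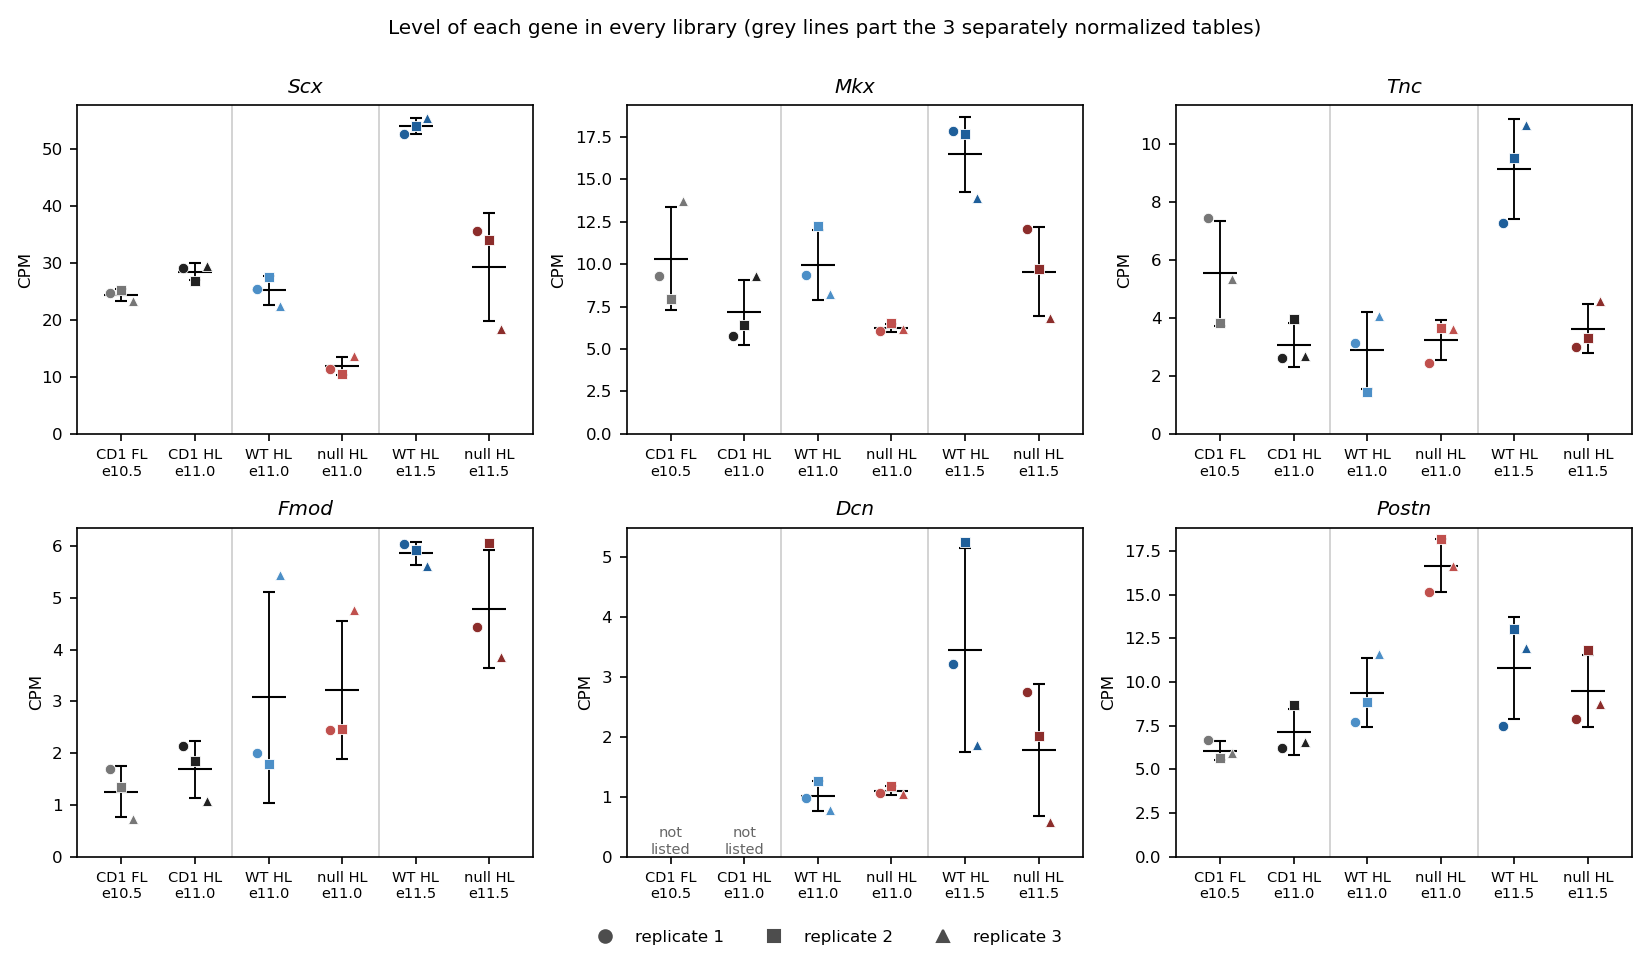
CPM (vertical axis, from 0) of each gene in every library, by group; FL is forelimb, HL hindlimb, WT Pitx1 wild type and null Pitx1 null, marker shapes are replicates 1 to 3, and black bars are the mean ± SD of 3 libraries. The null libraries of Scx and Mkx lie under their wild type at both stages, those of Tnc at e11.5, and those of Postn lie above wild type at e11.0.

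Among the matrix genes Tnc and Postn have promoter sequence in the RefSeq table used here, as does Fmod, and the 250 bases before the start are shown for the 2 genes with the largest fold change of the matrix genes at e11.5 and e11.0. The windows, those nearest to the annotated gene start, are from GRCm38.p6, printed 5′ to 3′ on the strand of the gene, at chr4:64047016-64047265 (minus strand) for Tnc and chr3:54360857-54361106 (plus strand) for Postn. Capitals mark the E-box CANNTG, the letters that basic helix-loop-helix factors such as Scx recognise.
Tnc: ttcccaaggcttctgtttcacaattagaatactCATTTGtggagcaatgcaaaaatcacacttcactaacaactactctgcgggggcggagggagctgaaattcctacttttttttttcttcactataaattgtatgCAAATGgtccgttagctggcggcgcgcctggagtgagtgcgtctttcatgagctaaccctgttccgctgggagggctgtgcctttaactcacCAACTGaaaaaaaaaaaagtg
Postn: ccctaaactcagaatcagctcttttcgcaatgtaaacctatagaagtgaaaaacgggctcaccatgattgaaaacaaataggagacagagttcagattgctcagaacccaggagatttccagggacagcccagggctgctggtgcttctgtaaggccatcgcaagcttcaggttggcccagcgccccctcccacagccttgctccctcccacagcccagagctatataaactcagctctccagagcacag
The Tnc window holds 3 E-boxes, the first bases of which lie 217, 113 and 21 bases before the start, and the Postn window holds 0. Searched on both strands, with no overlap between the motifs, at least 1 CANNTG was found in 66.2% of 32817 promoter windows of 250 bases, and TAATCC, the core bound by bicoid-class homeodomain factors such as Pitx1, in 6.25%. Neither window holds TAATCC, and the Fmod window (chr1:134037004-134037253, plus strand) holds 1 E-box and 0 TAATCC.

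Tnc (ENSMUSG00000028364, chromosome 4, 63959785 to 64047015, minus strand), an adhesion-modulating glycoprotein of condensing mesenchyme and tendon, was at 7.26, 9.50 and 10.6 CPM in wild type hindlimb at e11.5 and at 3.01, 3.31 and 4.57 CPM in the null. Wild type and null were well parted, and the null mean of 39.7% of wild type was the lowest such ratio among the members in any comparison (-1.13 ± 0.11, limma adjusted p = 0.000829). The difference was alike in all replicate numbers, at -1.04, -1.29 and -1.06. At e11.0 the wild type libraries were at 3.14, 1.44 and 4.06 CPM and the null libraries at 2.44, 3.65 and 3.60 CPM. These groups overlapped and the test did not pass (0.18 ± 0.20, 95% interval -0.27 to 0.62, limma adjusted p = 0.547). The sign turned without wild type replicate 2 (-0.0861, adjusted p = 0.678). In CD1 Tnc was at 7.43, 3.84 and 5.33 CPM in forelimb and at 2.60, 3.94 and 2.68 CPM in hindlimb, where forelimb replicate 2 fell inside the hindlimb range. That difference did not pass (-0.66 ± 0.20, 95% interval -1.10 to -0.22, limma adjusted p = 0.0830). It passed without forelimb replicate 2 (-0.91, adjusted p = 0.0131), with DESeq2 (-0.86, adjusted p = 0.0108) and in the authors' deposited table (-0.93, adjusted p = 0.000435).

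Postn (ENSMUSG00000027750, chromosome 3, 54361109 to 54391037, plus strand) encodes a secreted protein of collagen-rich connective tissue and was the only member higher in a null group. At e11.0 it was at 7.71, 8.86 and 11.6 CPM in wild type and at 15.1, 18.2 and 16.6 CPM in the null. Every null library was above every wild type library, with the null mean at 1.77 times wild type (0.78 ± 0.12, limma adjusted p = 0.00586). The adjusted p was 0.0572 without wild type replicate 1. At e11.5 the wild type libraries were at 7.46, 13 and 11.9 CPM and the null libraries at 7.87, 11.8 and 8.75 CPM. The groups overlapped there and the test did not pass (-0.16 ± 0.20, 95% interval -0.60 to 0.29, adjusted p = 0.632). The CD1 forelimb libraries at 6.66, 5.63 and 5.93 CPM and hindlimb libraries at 6.22, 8.67 and 6.53 CPM also overlapped (0.19 ± 0.12, 95% interval -0.08 to 0.46, adjusted p = 0.378). By group mean the null hindlimb at e11.0 (16.7 ± 1.53 CPM) stood above the other 5 groups, which ran from 6.07 ± 0.528 to 10.8 ± 2.94 CPM. Apart from wild type hindlimb at e11.0, those groups were normalized separately from it, so that order carries no test.

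Dcn (ENSMUSG00000019929, chromosome 10, 97479609 to 97518143, plus strand), a proteoglycan that binds collagen and Tgfb, was the lowest of the members per kb where listed, with 19 to 196 reads in the libraries that list it. At e11.5 it was at 3.21, 5.25 and 1.86 CPM in wild type and at 2.74, 2.01 and 0.578 CPM in the null. Null replicates 1 and 2 lay above wild type replicate 3, so the groups overlapped, but within each replicate number the null was the lower library (-0.17, -1.05 and -0.86 on the log2 scale). The fit gave -0.69 ± 0.16 (limma adjusted p = 0.0267). The adjusted p was 0.0688 without wild type replicate 2, 0.136 without wild type replicate 3, 0.122 without null replicate 2 and 0.134 without null replicate 3. At e11.0 all 6 libraries were at 0.770 to 1.27 CPM, and wild type (1.0 ± 0.249) and null (1.10 ± 0.0763) overlapped (0.07 ± 0.13, 95% interval -0.22 to 0.36, adjusted p = 0.720).

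Fmod (ENSMUSG00000041559, chromosome 1, 134037254 to 134048277, plus strand), the other proteoglycan, passed in none of the 3 comparisons by limma, edgeR, DESeq2 or the authors' deposited table. Its libraries at e11.5 were at 6.05, 5.92 and 5.61 CPM in wild type and at 4.43, 6.06 and 3.86 CPM in the null. Null replicate 2 was the highest library of both groups, while the other null libraries were under all wild type libraries (-0.26 ± 0.12, 95% interval -0.52 to -0.0021, unadjusted p = 0.0485, limma adjusted p = 0.164). At e11.0 replicate 3 of both genotypes stood apart, with wild type at 2.01, 1.78 and 5.43 CPM and null at 2.44, 2.46 and 4.76 CPM (0.12 ± 0.13, 95% interval -0.16 to 0.40, adjusted p = 0.526). In CD1 it was at 0.733 to 1.69 CPM in forelimb and 1.07 to 2.13 CPM in hindlimb, with each hindlimb library above the forelimb library of the same number (0.25 ± 0.11, 95% interval -0.0036 to 0.51, adjusted p = 0.233).

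Levels of different genes were compared only per kb of exon. In wild type hindlimb at e11.5 Scx was at 26.9 ± 0.707 CPM per kb, above Mkx at 4.02 ± 0.543, Fmod at 1.77 ± 0.0683, Postn at 1.24 ± 0.338, Tnc at 1.18 ± 0.221 and Dcn at 0.589 ± 0.292. In that order Postn and Tnc did not differ beyond their spread. Scx led in all 6 groups and Mkx was the next in 5 of them. In null hindlimb at e11.0, where Scx was at 5.92 ± 0.776 CPM per kb, Postn at 1.91 ± 0.175 was above Mkx at 1.53 ± 0.0562.

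The other regulators of the tendon programme on a list of 5 were Six2, Egr1 and Egr2, factors known from limb tendons, of which Egr2 was in none of the tables. Of the 4 listed genes, Scx and Mkx included, 2 were lower and 1 was higher in the null at e11.0, 2 were lower at e11.5, and 1 was lower in CD1 hindlimb. Beside this list and those below, 8.41% of all genes were lower and 4.73% higher at e11.0. The shares were 7.96% and 2.83% at e11.5, and 3.46% and 2.41% in CD1. Six2 rose at e11.0 (0.43 ± 0.12, limma adjusted p = 0.0468) from 1.02 ± 0.270 CPM, a low level, and at e11.5 it was at 16 ± 2.82 CPM in wild type against 10.6 ± 2.55 CPM in the null (-0.56 ± 0.17, adjusted p = 0.0629). The e11.0 call of Six2 was made in 1 of 6 fits that each left out a library, that without wild type replicate 2.

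Of 11 genes of Tgfb signalling, which induces Scx, 3 were lower in the null at e11.0, 2 were lower and 1 higher at e11.5, and 2 were lower and 1 higher in CD1 hindlimb. Over all genes 8.41% were lower at e11.0, 7.96% lower and 2.83% higher at e11.5, and 3.46% lower and 2.41% higher in CD1. Whether counts of 1 to 3 among 11 genes differ from these shares was not tested. With each library left out in turn, the number lower at e11.0 ran from 0 (without wild type replicate 1) to 6 (without wild type replicate 2). Those fits called 116 and 5273 of all 14027 genes. At e11.5 the number lower ran from 1 (without null replicate 2) to 3 (without replicate 1 of either genotype). The CD1 counts stayed at 2 and 1. The ligand Tgfb3 was lower in the null at e11.0 (15.3 ± 1.42 against 9.11 ± 0.758 CPM, -0.69 ± 0.11, limma adjusted p = 0.00547) and at e11.5 (36.7 ± 2.03 against 24.6 ± 3.30 CPM, -0.57 ± 0.09, adjusted p = 0.00703), and higher in CD1 hindlimb (0.51 ± 0.06, adjusted p = 0.000978). Its adjusted p was 0.0562 at e11.0 without wild type replicate 1 and 0.0509 at e11.5 without null replicate 2. The ligand Tgfb2 was lower in the null at e11.5 (-0.99 ± 0.12, adjusted p = 0.00169) and in CD1 hindlimb (-1.68 ± 0.14, adjusted p = 0.000138), but at e11.0 it was at 10.7 ± 2.16 CPM in wild type against 9.56 ± 1.34 CPM in the null (-0.14 ± 0.12, adjusted p = 0.422). Tgfbr2, the signalling receptor, and Smad3, its effector, passed at e11.0 (-0.44 ± 0.11, adjusted p = 0.0321, and -0.34 ± 0.09, adjusted p = 0.0382), but the groups overlapped for Smad3. Each of these calls was lost without wild type replicate 1 or 3 or null replicate 2 or 3. The co-receptor Tgfbr3 was lower in CD1 hindlimb (-0.74 ± 0.08), a call made in 6 of 6 fits without a library, and higher in the null at e11.5 (0.37 ± 0.09), a call made in 2 of 6.

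Of 11 genes of Fgf signalling 4 were higher and 2 lower in the null at e11.5, 2 were lower at e11.0 and 2 were lower in CD1 hindlimb. The shares of all genes were 2.83% higher and 7.96% lower at e11.5, 8.41% lower at e11.0 and 3.46% lower in CD1. Fgf10, the mesenchymal ligand, rose at e11.5 from 28.8 ± 6.19 to 45.4 ± 4.95 CPM (0.65 ± 0.07, limma adjusted p = 0.00123), with the feedback inhibitors Spry4 (0.47 ± 0.07) and Spry1 (0.37 ± 0.08) and the response factor Etv4 (0.40 ± 0.08), while Spry2 (-0.28 ± 0.06) and the receptor Fgfr1 (-0.19 ± 0.04) fell. With the common run alone 2 were higher and 0 lower, and with scaling by trimmed means or with edgeR 6 were higher and 1 lower. With each library left out in turn, Fgf10 and Spry4 were called at e11.5 in 6 of 6 fits, Spry1 in 3, Etv4 and Spry2 in 2 and Fgfr1 in 1. At e11.0 the genes called lower were Fgfr1 (-0.47 ± 0.14) and the phosphatase Dusp6 (-0.42 ± 0.07), though with trimmed means 1 Fgf gene was lower and 2 were higher, and without wild type replicate 1 or null replicate 2 the number lower was 0. In CD1 hindlimb Fgf10 (-0.39 ± 0.08) and the receptor Fgfr2 (-0.25 ± 0.04) were lower, each in 3 of 6 fits without a library. Neither was called without replicate 3 of either limb. The call of Fgf10 was also lost without hindlimb replicate 1, and that of Fgfr2 without hindlimb replicate 2.

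Only 3 to 5 of 10 small leucine-rich proteoglycan genes were listed, and Kera, Ogn, Omd, Aspn and Epyc were in none of the tables. At e11.5 Dcn, Lum and Prelp were lower in the null, 3 of 5 beside 7.96% of all genes, against 1 of 5 with the common run alone. Lum, a collagen-binding relative of Fmod, was at 14.8 ± 6.97 CPM in wild type against 10.3 ± 6.55 CPM in the null (-0.61 ± 0.14, limma adjusted p = 0.0245), and Prelp, at 1.72 ± 0.101 against 0.320 ± 0.206 CPM, had the larger difference (-1.05 ± 0.11, adjusted p = 0.00120). Prelp was called in 6 of 6 fits without a library, and the call of Lum was lost without wild type replicate 3, null replicate 2 or null replicate 3. With its null mean under the listing minimum of 0.5 CPM, Prelp was listed only through its wild type libraries. A fall was thus the only direction that could be seen for Prelp, and its call is a description. Bgn, the close relative of Dcn, was at 35.7 ± 2.06 and 35.5 ± 4.71 CPM there (-0.02 ± 0.09, adjusted p = 0.930). At e11.0 and in CD1 limma called 0 of 4 and 0 of 3 of these genes, with 0 at an unadjusted p under 0.05, and edgeR and DESeq2 called 0 in both.

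Among 12 tenascins and partners in the matrix, 4 of the 8 listed at e11.5 were lower in the null, namely Tnc, Thbs4 (-0.42 ± 0.12), Tgfbi (-0.37 ± 0.07) and Fn1 (-0.34 ± 0.07), against 2 of 8 with the common run alone. Fn1, the fibronectin gene, fell from 980 ± 87.3 to 774 ± 43.7 CPM (limma adjusted p = 0.0232). Over all genes 7.96% were lower at e11.5 and 3.46% in CD1, and 4.73% were higher at e11.0. In fits without a library Tnc was called in 6 of 6, Tgfbi in 5 (not without null replicate 2), Fn1 in 2 and Thbs4 in 1. At e11.0 Postn was the only one of 7 called (2 higher with trimmed means). In CD1 hindlimb Thbs2 (-0.48 ± 0.08, 4 of 6 fits without a library) and Tgfbi (-0.45 ± 0.06, 6 of 6) were lower. Of 9 listed integrin and Egfr genes, which encode receptors for tenascin and periostin, 2 were lower at e11.5 and 2 in CD1. Itga4 was lower in both (-0.92 ± 0.09 and -0.78 ± 0.07), each time in 6 of 6 fits without a library. The calls of Itga8 at e11.5 (-0.21 ± 0.06) and Egfr in CD1 (-0.36 ± 0.07) were made in 1 and 2 of 6. At e11.0 limma called 0 of 9 receptor genes, with 3 at an unadjusted p under 0.05, edgeR called 0 and DESeq2 1.

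Of 11 listed collagen and crosslinking genes of tendon 5 were lower and 1 was higher in the null at e11.5, 4 were lower and 1 higher at e11.0, and 3 were lower and 1 higher in CD1 hindlimb. The shares of all genes lower and higher were 7.96% and 2.83% at e11.5, 8.41% and 4.73% at e11.0, and 3.46% and 2.41% in CD1. Tnmd, a marker of differentiated tendon cells, was in none of the tables. Col12a1, a fibril-associated collagen, was lower in each comparison. It fell from 74.1 ± 10.8 to 48.6 ± 17.6 CPM at e11.5 (-0.66 ± 0.13, limma adjusted p = 0.0140). The fall was from 38.6 ± 3.61 to 25.3 ± 0.825 CPM at e11.0 (-0.59 ± 0.08, adjusted p = 0.00404) and by -0.26 ± 0.05 in CD1 hindlimb (adjusted p = 0.0165). Col14a1, another fibril-associated collagen, was higher in both nulls. It was at 3.38 ± 1.25 CPM in wild type against 11.6 ± 2.29 CPM in the null at e11.0 (1.54 ± 0.17, adjusted p = 0.00116), and at 3.56 ± 1.20 and 7.57 ± 3.18 CPM at e11.5 (0.87 ± 0.17, adjusted p = 0.0152), where the groups overlapped. Among the others the largest falls were Col1a2 at e11.0 (-0.60 ± 0.10), Col6a2 at e11.5 (-0.58 ± 0.08), and Col6a3 (-0.95 ± 0.09) and Lox (-0.79 ± 0.11) in CD1 hindlimb. With the common run alone the counts lower and higher were 4 and 0 at e11.5, 1 and 1 at e11.0, and 2 and 0 in CD1, and with trimmed means they were 2 and 1 at e11.0. With each library left out in turn, the number lower at e11.0 ran from 1 (without wild type replicate 1 or 3 or null replicate 3) to 7. The 7 came without wild type replicate 2, a fit that called 5273 of all genes. At e11.5 the number lower ran from 2 (without null replicate 2) to 7 (without replicate 1 of either genotype). Calls made in 6 of 6 such fits were those of Col12a1 and Col14a1 at e11.0, Col5a1 and Col6a2 at e11.5, and Col6a3 and Lox in CD1. Col5a1 was lower at e11.5, at -0.53 to -0.43 over these fits. In CD1 hindlimb it was the gene called higher, a call made in 0 of 6. Col12a1 was called in 5 at e11.5 (not without null replicate 2) and 1 in CD1, Col14a1 in 2 at e11.5 and Col1a2 in 3 at e11.0.

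**Figure D3:**
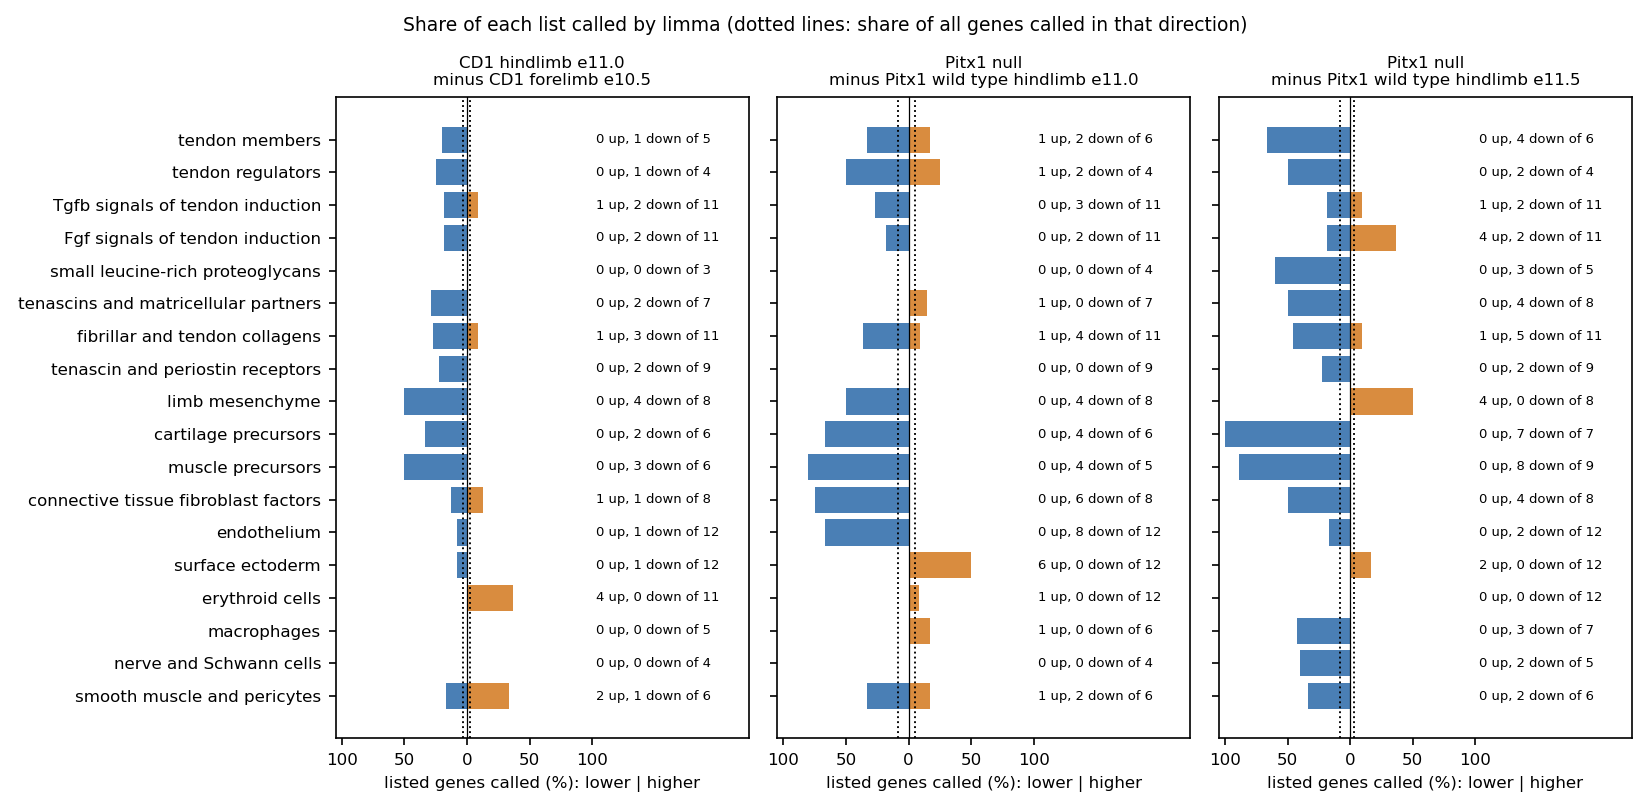
Share of the listed genes of each list called lower (blue, left) or higher (orange, right) by limma in each comparison, in percent, with the counts beside the bars and dotted lines at the share of all genes called in that direction. The cartilage list at e11.5 is called lower throughout (7 of 7), beside 4 of 6 tendon members.

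Markers of other cells of the bud moved beside the tendon genes. In the null at e11.5, 7 of 7 listed cartilage precursor genes were lower (summed level 1047 to 1174 CPM in wild type and 526 to 654 CPM in null libraries). So were 8 of 9 muscle precursor genes (204 to 238 and 142 to 183 CPM) and 4 of 8 connective tissue factors (1544 to 1782 and 948 to 1513 CPM). The latter were Tbx4, Tcf7l2, Tbx15 and Tbx18. Tbx4 was also lower in the null at e11.0 and differed between the CD1 limbs. It was higher in CD1 hindlimb, at 4.20 to 4.33 on the log2 scale over the fits without a library. In contrast, 4 of 8 limb mesenchyme genes were higher (1664 to 2113 and 1648 to 2234 CPM). Beside these and the later counts, the shares of all genes lower and higher were 7.96% and 2.83% at e11.5. They were 8.41% and 4.73% at e11.0, and 3.46% and 2.41% in CD1. The cartilage genes Acan, Matn1 and Snorc were in none of the tables. At e11.0, 4 of 6 cartilage, 4 of 5 muscle, 6 of 8 connective tissue, 4 of 8 limb mesenchyme and 8 of 12 endothelial genes were lower. There 6 of 12 surface ectoderm genes were higher, with a summed level of 356 to 878 CPM in wild type and 469 to 1067 CPM in null libraries. Of 12 erythroid genes 1 was higher at e11.0, or 0 to 10 with each library left out in turn. Their summed level was 4944 to 11410 CPM in wild type and 6237 to 18000 CPM in null libraries, highest in replicate 3 of both genotypes. With the common run alone these e11.0 counts were 3 for cartilage, 5 for connective tissue, 3 for limb mesenchyme, 1 for muscle, 0 for endothelium (10 at an unadjusted p under 0.05) and 1 for ectoderm, and edgeR on all libraries called 6 endothelial genes lower. With each library left out in turn, the e11.0 counts ran from 3 to 4 for cartilage, 5 to 7 for connective tissue, 1 to 5 for muscle, 1 to 6 for limb mesenchyme, 0 to 9 for endothelium and 1 to 11 for ectoderm. The highest of each came without wild type replicate 2, a fit that called 5273 of all 14027 genes. At e11.5 they ran from 6 to 7 for cartilage, 5 to 9 for muscle, 4 to 7 for connective tissue and 3 to 5 for limb mesenchyme. The ectoderm count at e11.5 was 2, or 6 with trimmed means. In CD1 hindlimb 3 of 6 muscle, 4 of 8 limb mesenchyme and 2 of 6 cartilage genes were lower and 4 of 11 erythroid genes were higher, with ranges over the fits without a library of 2 to 4, 2 to 4, 1 to 2 and 3 to 6. At e11.5 3 of 7 macrophage, 2 of 5 nerve and Schwann cell and 2 of 6 smooth muscle and pericyte genes were lower. Without replicate 3 of either genotype these were 0, 0 and 1. In this bulk RNA fewer cells of a type and less RNA per cell cannot be told apart, and the part of these markers in the differences of the tendon genes was not tested.

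Over the 18 libraries, each value taken as log2(CPM + 1) minus the mean of its table and run, Scx and Mkx had a Pearson r of 0.770, and Scx and Sox9, the cartilage factor, one of 0.933. Sox9 fell with Scx in the nulls, from 25.9 ± 4.03 to 13.2 ± 1.62 CPM at e11.0 (-0.92 ± 0.10, limma adjusted p = 0.000859) and from 207 ± 6.19 to 109 ± 35.2 CPM at e11.5 (-0.96 ± 0.15, adjusted p = 0.00551). Both Sox9 calls held in all 6 fits without a library. Scx had an r of 0.244 with Tnc, 0.223 with Fmod and -0.391 with Postn, and Fmod and Postn had an r of 0.531. Among 10745 genes listed in all tables with a mean of at least 5 CPM, the patterns most like Scx were those of Foxo4 (r = 0.975), Robo2 (0.971), Galnt5 (0.970), Dstyk (0.969) and Fli1 (0.963). Those most like Mkx were Aldh6a1 (0.961), Col9a1 (0.958), Rimklb (0.949), Zfp729a (0.944) and Shisa2 (0.943). For the matrix genes the likeness was lower, led by Svil for Tnc (0.876), Mcee for Postn (0.854) and Ahr for Fmod (0.831). The libraries share runs, tables and depth, and the genes were picked as the highest of many, so these values are descriptions. Centring by table and run keeps the difference between the 2 groups of a table. It makes replicate 3 libraries mirror images of each other (Scx at e11.5 0.7674 and -0.7674). An r between genes called in the same null comparisons therefore partly restates those calls.

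**Figure D4:**
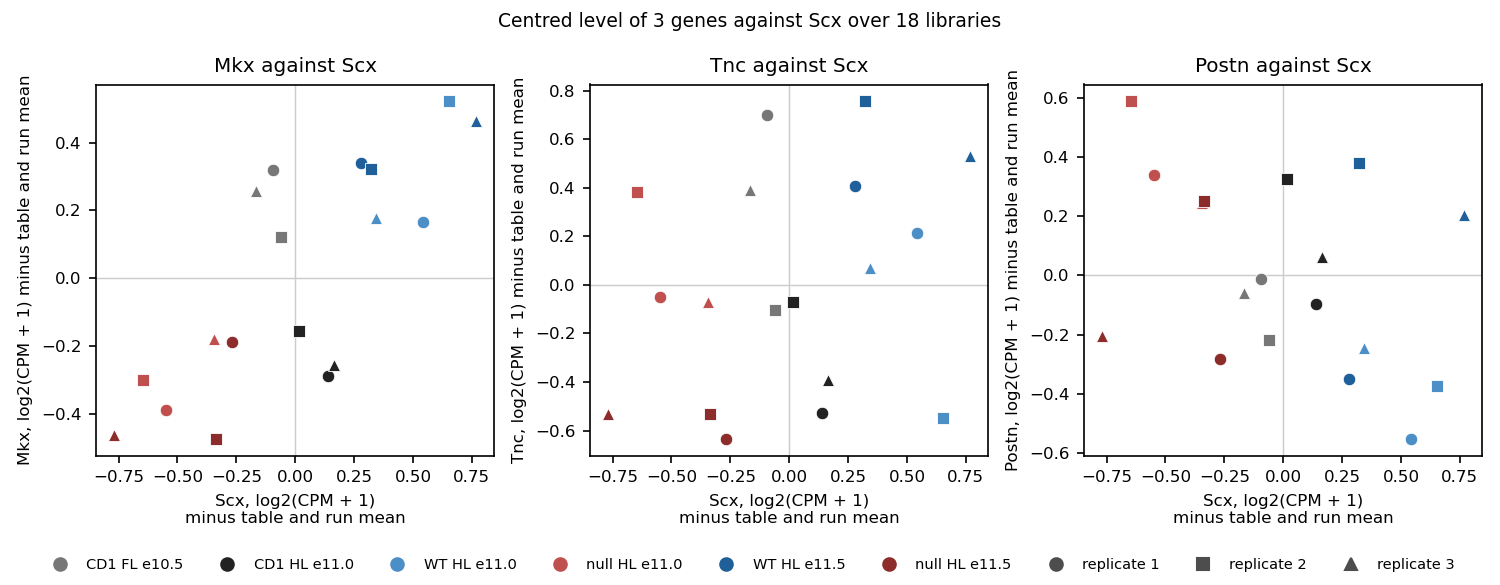
Mkx, Tnc and Postn (vertical axes) against Scx (horizontal axis) over the 18 libraries, each as log2(CPM + 1) minus the mean of its table and run; colours are groups (FL forelimb, HL hindlimb, WT Pitx1 wild type, null Pitx1 null) and marker shapes replicates. Mkx rises with Scx (r = 0.770), while Postn is highest in null libraries at e11.0, where Scx is low (r = -0.391). The centring keeps the difference between the groups of each table, so r partly restates the calls.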

How the data were processed

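The data are 18 limb bud libraries. The submitters' processing notes name STAR (an aligner), featureCounts (a read counter), edgeR and the build GRCm38 (mm10). The versions and whether counting used strand are not given in the sources used here. The authors deposited 3 tables, 1 per comparison, with each library's CPM, which sum to 1000000 over the 13540, 14027 and 13478 genes listed. Their edgeR log2 fold change, average log2 CPM, likelihood-ratio score, p-value and adjusted p-value were deposited beside them, per the file headers. In every table all genes were above 0.5 CPM in 3 or more libraries. GENCODE (release M 21) held 13519, 14004 and 13463 of the identifiers and gave the exon lengths for CPM per kb.

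Each table was fitted with limma 3.58.1 (R 4.3.3, mean-dependent prior) on log2(CPM + 1), with terms for group and run (the common run against the other), 3 residual degrees of freedom, two-sided tests and Benjamini-Hochberg adjustment over all genes. In CD1, where the titles of replicate 3 name no run, that replicate was assumed to belong to another run. CPM were whole multiples of 1 read within 0.01 read for 100% of values, and the recovered reads (no molecular identifiers, so their precision covers counting error only) were tested with edgeR 4.0.16, which called 881, 1734 and 1630 genes, and DESeq2 1.42.0. These scripts were tested on simulated data. Deviations from the group means were correlated across genes between libraries of the same number (CD1 0.69, 0.80 and 0.94; e11.0 0.66, 0.64 and 0.86; e11.5 0.73, 0.83 and 0.91), so the replicate number was used as a block in an alternative. Libraries of different numbers within the common run also correlated (0.41 to 0.85, in CD1 0.75 and 0.85), so pairing by number and the shared run cannot be told apart. Other alternatives changed the pseudocount, the filter, the scaling, the run term and the libraries used.

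The members and the 18 gene lists were chosen with earlier results of these data known, and lists carry no test of their own. An item of the list of tendon regulators is not reported here. List genes are named where they passed the threshold, up to 4 per list and comparison by fold change, and genes most like a member are the 5 with the highest correlation. Bgn, Six2 at e11.5, Tgfb2 at e11.0, Spry2 and Fgfr1 at e11.5, Bop1 and Sox9 were named after their values were seen.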

Additional observations from a re-analysis of the deposited data

How the results depend on the processing

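Of 323 values of single members under alternatives, 294 kept their direction and side of the threshold, 23 lost the call, 4 gained it and 2 changed sign. In fits that left out 1 library each, Tnc at e11.0 ranged from -0.0861 to 0.3496 and Postn at e11.5 from -0.3996 to 0.0165. In replicate 3 alone, an alternative chosen after seeing the data and without a test, Tnc at e11.0 was -0.1367 and Fmod -0.1608.

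Over all genes, the counts called were 795, 1843 and 1455 in CD1, at e11.0 and at e11.5. Without the run term they were 13, 5 and 11, with the common run alone 471, 199 and 483, and the authors' deposited calls numbered 1689, 2895 and 2644. Leaving out 1 library gave 394 to 1191, 116 (without wild type replicate 1) to 5273 (without wild type replicate 2) and 433 to 2627. The replicate block gave 3442 calls at e11.0 and changed no member's call.

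Members called lower numbered 1, 2 and 4. Without the run term they numbered 0 in each comparison, with 0 higher at e11.0, and with the common run alone 0 in CD1 and 1 at e11.0. DESeq2 called 2 lower in CD1, and the authors' deposited calls there were 2 lower and 1 higher. Leaving out 1 library gave 0 to 2, 1 to 2 and 3 to 4 lower, and 0 to 1 higher at e11.0.

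The split of calls over all genes depended on scaling: 664 higher and 1179 lower at e11.0 became 1067 and 520 with trimmed means, 1326 and 403 with median ratios and 984 and 567 with the upper quartile, and 382 and 1073 at e11.5 became 651 and 927, 743 and 919, and 417 and 1082. No scaling changed the call of a member. The cause of these changes was not tested. Dcn had the fewest reads, as few as 19 in a library.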
